A study of Sus scrofa with 48 samples.

Results

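The transcription factor NRF2 (gene NFE2L2), its inhibitor KEAP1 and 7 of its known target genes, NQO1, HMOX1, GCLC, GCLM, GSR, TXN and TXNRD1, were followed in pig liver. A probe was taken as a member when the gene name given by the scanner software, or the accession of its target, was that of 1 of these 9 genes. This rule found 30 of the 60305 probes of the array, and all 9 genes had at least 1 of them. A probe was tested when the scanner software marked it well above background on at least 12 arrays. This left 28 of the 45236 tested probes of the array, from 9 of the 10589 named genes with a tested probe.

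Liver was sampled from 48 Large White barrows (castrated males) of lines divergently selected during 8 generations for residual feed intake (RFI). In the study's selection index, RFI is the part of feed intake that growth rate and backfat thickness do not account for. Pigs of the low RFI line eat less than predicted and pigs of the high RFI line eat more. From 10.6 weeks of age, pigs of both lines were offered freely either a high-fat high-fiber diet (HF) or a low-fat low-fiber diet (LF), and tissues were taken at 18.9 weeks in the fed state. There were 12 pigs in each of the 4 groups, low RFI with HF, high RFI with HF, low RFI with LF and high RFI with LF, and each pig had an array of its own. Fat and fiber changed together between the diets, so their effects cannot be told apart, and neither can selection and any other difference that built up between the lines.

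In unstressed cells KEAP1 binds NRF2 and has it destroyed. When oxidants or electrophiles modify KEAP1, NRF2 escapes, enters the nucleus and switches on genes that make glutathione, recycle glutathione and thioredoxin, and detoxify quinones and haem. NRF2 is thus controlled largely at the level of the protein, which an RNA array does not measure, and the liver is a main site of this response because it handles dietary and foreign compounds.

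Across the 48 arrays, 65.8 to 77.2% of the probes were well above background, and the correlation of an array with the median array was at least 0.9876. The arrays filled 6 slides, each with 2 arrays of every group, and were scanned on 2 days with 24 arrays each. The 8 tested markers of hepatocytes, such as albumin and transferrin, averaged between 9.68 and 10.28 log2 units above the array median on every array. In bulk tissue, a lower level may come from fewer cells of a type or from less RNA per cell, and these cannot be told apart.

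Member probes were 60 bases long, and some genes carried probes that read differently although they bear the same gene name. Probes of TXN, NQO1 and NFE2L2 are printed first, since several results below turn on which probe is read. Those of TXNRD1, which fell into separate sets, are described with that gene. In the pairs for TXN and NQO1, capitals mark the stretch that each probe shares with the other as its reverse complement. The NFE2L2 probes share no stretch with each other, and capitals in O8761 mark the reverse primer that the study designed for qPCR of NFE2L2.
TXN A_72_P177678: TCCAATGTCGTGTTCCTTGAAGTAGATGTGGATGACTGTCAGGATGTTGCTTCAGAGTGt
TXN O7867: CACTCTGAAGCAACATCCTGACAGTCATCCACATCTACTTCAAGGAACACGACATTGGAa
NQO1 A_72_P553981: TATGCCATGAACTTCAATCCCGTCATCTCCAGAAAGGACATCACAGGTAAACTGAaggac
NQO1 O14371: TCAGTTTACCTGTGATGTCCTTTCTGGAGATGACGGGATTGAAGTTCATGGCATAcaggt
NFE2L2 A_72_P229977: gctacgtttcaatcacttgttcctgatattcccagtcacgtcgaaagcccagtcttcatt
NFE2L2 O8761: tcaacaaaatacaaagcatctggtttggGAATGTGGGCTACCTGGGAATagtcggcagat
The TXN pair shares 59 bases and the NQO1 pair 55 bases, so that within each pair the probes read opposite strands of 1 stretch. The NQO1 probe O14371 was well above background on 0 of 48 arrays and was not tested, whereas the probe for the other strand was on 48. Both TXN probes were well above background on 48 of 48 arrays. For NFE2L2, O8761 holds the whole reverse primer as printed, at positions 29 to 49 counted from its 5′ end, and a reverse primer is complementary to the mRNA. O8761 is therefore in the orientation opposite to the NFE2L2 mRNA. Neither primer lies in the other NFE2L2 probes. The other untested probe, A_72_P177956 for TXNRD1, was well above background on 5 of 48 arrays.

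Levels below are log2 intensities relative to the median of the array, and differences are on the same log2 scale. Levels cannot be compared between probes, which differ in brightness for reasons other than the amount of RNA. A probe was called when P was under 0.01 and the fold-change (FC) over 1.1 in limma, the cut-offs of the study. P-BH is the P-value adjusted over all 45236 tested probes (Benjamini-Hochberg).

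With diet, the mRNA of the regulator was called, while no probe of its targets or of KEAP1 was. The second part depends on the fit, since GCLM was called too with slide as a block (0.19, P = 0.00569) and GCLC O9439 with the normexp background correction (0.28, P = 0.00961). Whether the regulator and its targets differed in their response was not tested. The GCLC diet differences, 0.32 and 0.34 (SE 0.14), were larger than those of the called NFE2L2 probes, 0.25 and 0.28 (SE 0.07). NFE2L2 was over-expressed with the HF diet on 2 of its 3 probes, with an FC of 1.19 and 1.21. These were the 2 probes called among 28, or 7.14%, beside 4.61% of all tested probes called for diet. Of the 28 probes, 1 passed a P-BH of 5%, and 0.455% of all tested probes did so. At an unadjusted P under 0.05 there were 7 of the 28 member probes (25%) and 14.4% of all tested probes. The diet difference (HF minus LF) was above 0 on 19 of 28 probes, with a median of 0.05 against -0.01 over all tested probes.

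Between lines, 0 of the 28 probes were called in limma, where 6.91% of all tested probes were. None passed a P-BH of 5%, whereas 3.93% of all tested probes did, and the lowest P-BH was 0.192. An unadjusted P under 0.05 was reached by 7 of 28 probes (25%), all lower in pigs of the low RFI line, beside 14.7% of all tested probes. These were probes of HMOX1, GCLC, GCLM and TXN. With slide as a block, TXN A_72_P677901 was called (-0.14, P = 0.008). The line difference (low minus high RFI) was below 0 on 23 of 28 probes, and its median was -0.11 against 0.01 over all tested probes. Probes of a gene read the same pigs and are not independent of each other.

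The interaction of line and diet was called for 0 of the 28 probes, with 0.376% of all tested probes called, and the lowest member P was 0.296. When the lines were compared within a diet, 0 of 28 probes were called with the HF diet and 0 of 28 with the LF diet, beside 3.41% and 3.84% of all tested probes. When the diets were compared within a line, the 2 NFE2L2 probes were called in the low RFI line, beside 2.68% of all tested probes. In the high RFI line 0 of 28 were called, beside 1.58% of all tested probes. A call in 1 line and not in the other does not show that the lines differed, as the interaction of neither probe passed the cut-off.

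**Figure D1:**
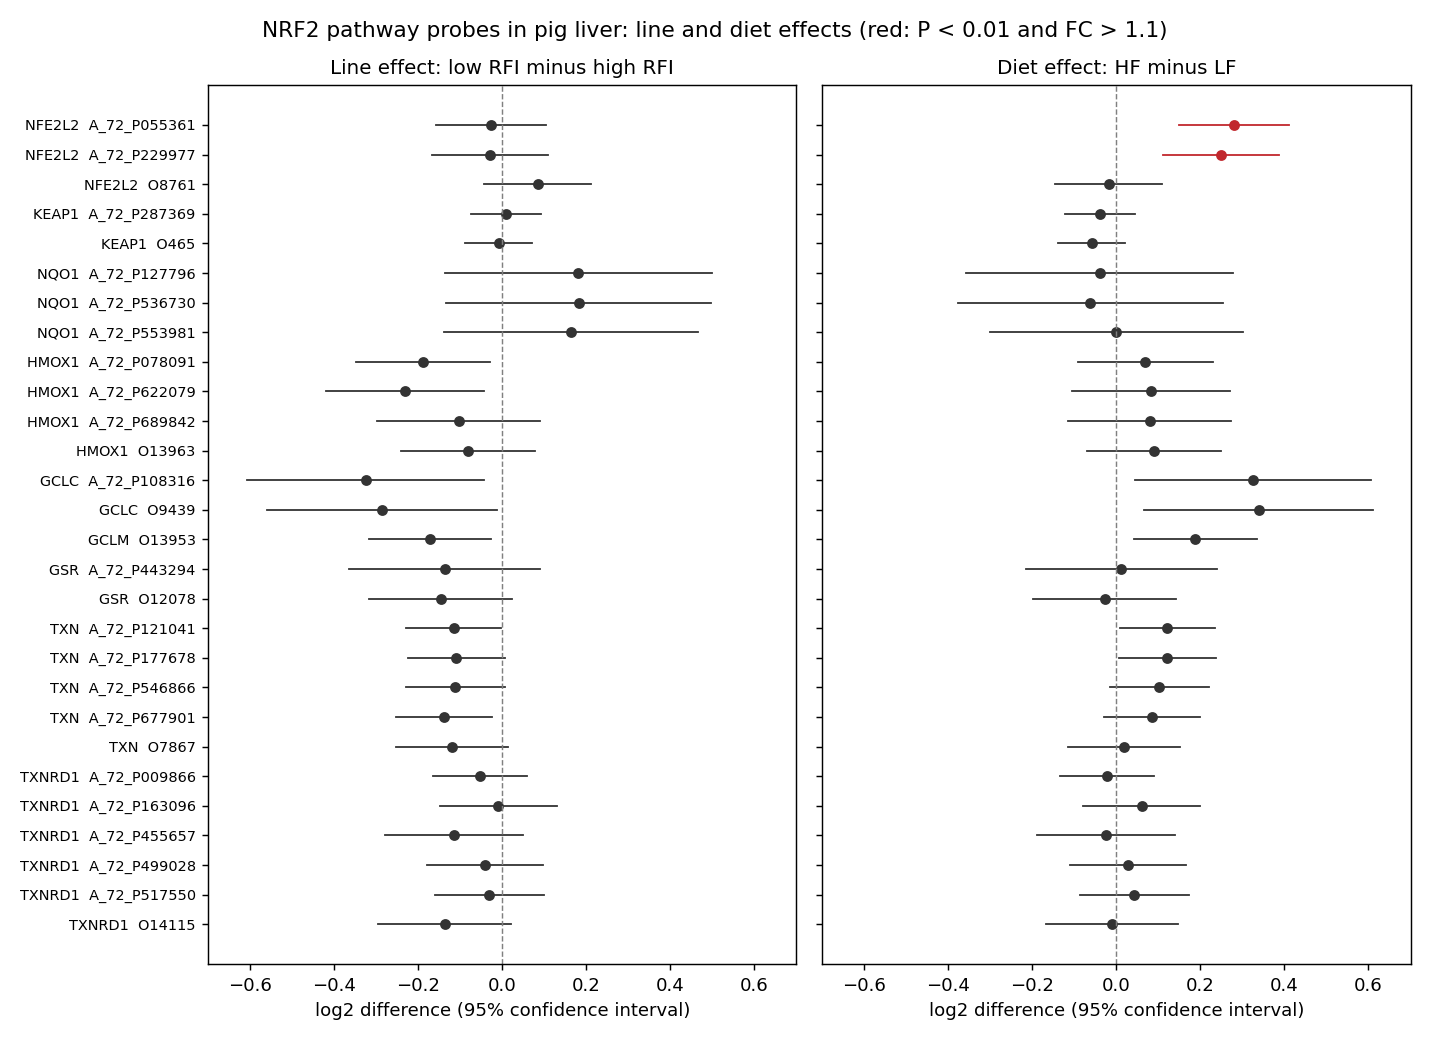
Line difference (low minus high RFI, left) and diet difference (HF minus LF, right) of the 28 tested member probes, as log2 differences on the x axis with their 95% confidence intervals; rows are probes, grouped by gene, and called probes are red. The 2 NFE2L2 probes at 0.25 and 0.28 in the diet panel are the only red ones, and most points of the line panel lie below 0.

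NFE2L2 encodes NRF2 itself, the activator of the other genes. On probe A_72_P229977, its brightest, levels ran from 0.39 to 1.30 with a median of 0.88 in the 24 pigs fed the HF diet. In the 24 pigs fed the LF diet they ran from 0.29 to 1.19 with a median of 0.63. The ranges overlapped, but 19 of 24 pigs on the HF diet lay above the median of the LF pigs. The diet difference was 0.25 (SE 0.07, 95% confidence interval 0.11 to 0.39), an FC of 1.19 (1.08 to 1.31) with P = 0.000677 and P-BH = 0.0766.

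Probe A_72_P055361, for another stretch of NFE2L2, gave the same picture. Levels ran from 0.13 to 0.87 (median 0.42) with the HF diet and from -0.12 to 0.82 (median 0.16) with the LF diet, and 22 of 24 pigs on HF lay above the LF median. The NFE2L2 difference was 0.28 (SE 0.07, 95% confidence interval 0.15 to 0.41), an FC of 1.21 with P = 8.88e-05 and P-BH = 0.0383. After removal of the group means, both probes varied together across the 48 pigs (r = 0.94).

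The third NFE2L2 probe did not follow them. With O8761, the probe in the opposite orientation printed above, levels ran from 0.03 to 0.67 (median 0.34) with the HF diet and from -0.08 to 0.96 (median 0.39) with the LF diet. The NFE2L2 difference on this probe was -0.02 (95% confidence interval -0.15 to 0.11, P = 0.774). Its correlation with the other NFE2L2 probes across pigs was 0.12 and 0.04, although it was well above background on all 48 arrays.

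The order of the groups was the same on both responsive NFE2L2 probes. On A_72_P229977, means ± SD (n = 12 each) were 0.89 ± 0.23 in low RFI pigs with HF, 0.85 ± 0.28 in high RFI pigs with HF, 0.67 ± 0.24 in high RFI pigs with LF and 0.57 ± 0.20 in low RFI pigs with LF. The line difference within a diet was not called, with limma P = 0.666 on HF and P = 0.295 on LF. In the low RFI line the NFE2L2 diet difference was 0.32 (P = 0.00174) and in the high RFI line 0.18 (P = 0.0739), and the interaction was 0.14 (P = 0.296). On A_72_P055361 the corresponding differences were 0.34 (P = 0.000653) and 0.22 (P = 0.0197), with an interaction of 0.11 (P = 0.386). The line difference averaged over diets was -0.03 on both probes (P = 0.661 and 0.669).

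The NFE2L2 diet difference kept its direction in both scan days but was called in only 1 of them. Among the 24 arrays of scan day 1 it was 0.17 on A_72_P229977 (P = 0.0721) and 0.19 on A_72_P055361 (P = 0.0543). On scan day 2 it was 0.32 (P = 0.00582) and 0.37 (P = 0.00069). Of the cell type markers, CD247, a chain of the T cell receptor complex, was higher with the HF diet by 0.40 (P = 0.000217, P-BH = 0.0493). Of all named genes, 4.19% were called for diet. CD247 was the 1 marker called for diet by its brightest probe among the 9 tested of the T and NK cell list. The median diet difference of this list was 0.04. It was 0.26 for bile duct cell markers, 0.12 for macrophage and Kupffer cell markers, -0.09 for hepatocyte markers and -0.34 for red blood cell markers. On at least 1 probe, 1 of 6 bile duct cell markers was called higher with HF. In the same way, 1 of 8 hepatocyte and 1 of 8 stellate cell and fibroblast markers were called lower. The mean level of the T and NK cell list ran from -0.75 to 0.47 with HF and from -0.61 to 0.70 with LF. Across pigs, NFE2L2 and that list had r = -0.08 (permutation P = 0.57, P-BH = 0.77). The part of these cell types in the NFE2L2 difference was not tested.

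By its pattern across the 48 pigs after removal of group means, the named genes most like NFE2L2 (A_72_P229977) were LENG1 with r = 0.65, TRAF3IP1 with r = 0.61 and KDM5A with r = 0.59. All values were read on the same arrays. None of the other 8 members was among these 3.

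**Figure D2:**
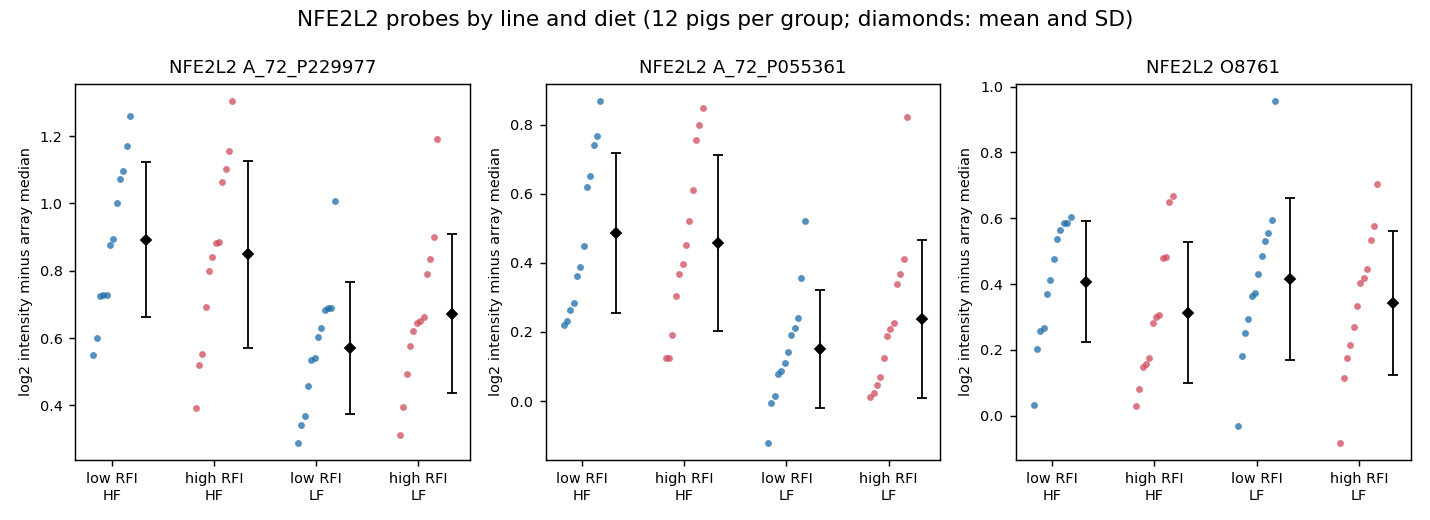
Levels of NFE2L2 on its 3 tested probes, as log2 intensity minus the array median (y axis), in the 4 line and diet groups (x axis); points are pigs (12 per group, sorted) and diamonds with bars are mean and SD. HF pigs lie higher than LF pigs in the first 2 panels, while in the O8761 panel the median was 0.34 with HF and 0.39 with LF.

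KEAP1, the adaptor that targets NRF2 for degradation, was the steadiest member. On O465, its brightest probe, levels ran from 4.35 to 4.79 with HF and from 4.39 to 4.88 with LF, with medians of 4.55 and 4.60. From the lowest to the highest of the 48 pigs KEAP1 spanned 1.44-fold, with an SD within groups of 0.13. Its diet difference was -0.06 (95% confidence interval -0.14 to 0.02, P = 0.147) and its line difference -0.01 (-0.09 to 0.07, P = 0.825). The other KEAP1 probe, A_72_P287369, gave -0.04 for diet (P = 0.357) and 0.01 for line (P = 0.839). These intervals leave room for an FC of about 1.1 at most in either direction.

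NQO1, which reduces quinones without releasing radicals, was in contrast among the most variable members. On A_72_P536730, levels ran from 0.38 to 2.13 (median 1.28) in pigs of the low RFI line and from 0.13 to 2.09 (median 1.17) in pigs of the high RFI line. The lines overlapped, and a wide spread was found within groups too, for example from 0.40 to 2.09 in low RFI pigs with LF. Over the 48 pigs the 3 tested NQO1 probes spanned 4.0-fold to 5.24-fold, and they varied together (r = 0.89 to 0.94). The NQO1 line difference was 0.16 to 0.18 on these probes (P = 0.254 to 0.28) and the diet difference -0.06 to 0.00 (lowest P = 0.693). With an SD of about 0.55 within groups, the 95% confidence interval of the line difference on A_72_P536730 reached from -0.13 to 0.50. NQO1 was the 1 target gene whose line differences were all above 0.

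HMOX1, haem oxygenase, breaks haem down to biliverdin, iron and carbon monoxide. On A_72_P622079, levels ran from 0.18 to 1.47 (median 0.99) in the low RFI line and from 0.44 to 1.84 (median 1.23) in the high RFI line. The ranges overlapped, and 21 of 24 low RFI pigs lay below the high RFI median. The HMOX1 difference was -0.23 (SE 0.09, P = 0.0171, P-BH = 0.192), an FC of 0.852 that was not called. On the brightest probe, A_72_P078091, it was -0.19 (SE 0.08, P = 0.0215), with 18 of 24 low RFI pigs below the high RFI median. The remaining HMOX1 probes gave -0.10 (A_72_P689842, P = 0.286) and -0.08 (O13963, P = 0.309). The file lists a human transcript as the target of the last, and across pigs it followed the other HMOX1 probes less closely (r = 0.44 to 0.70) than they followed each other (r = 0.82 to 0.87). For diet, all 4 HMOX1 probes lay between 0.07 and 0.09 (P = 0.269 to 0.414).

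Glutathione, the main small antioxidant of the cell, is made in a first step by glutamate-cysteine ligase, whose catalytic subunit is GCLC and whose modifier subunit is GCLM. Both subunits had the highest group median in high RFI pigs on the HF diet and the lowest in low RFI pigs with LF. The order of the other groups differed between them. On their member probes, neither was called without the changes of fit given above. A GCLM probe outside the member rule was called for line and is described under the other observations. Across pigs after removal of group means, GCLC and GCLM had r = 0.28 (permutation P = 0.055, P-BH = 0.23). For GCLC on O9439, medians were 1.06 in high RFI pigs with HF (0.61 to 1.94), 0.75 in high RFI pigs with LF (-0.63 to 1.59), 0.73 in low RFI pigs with HF (0.11 to 1.30) and 0.68 in low RFI pigs with LF (-0.50 to 1.01). All groups overlapped. The GCLC diet difference was 0.34 (SE 0.14, P = 0.0159, P-BH = 0.235), with 17 of 24 HF pigs above the LF median. The GCLC line difference was -0.29 (SE 0.14, P = 0.0398, P-BH = 0.303). The second GCLC probe, A_72_P108316, gave 0.32 for diet (P = 0.0245) and -0.33 for line (P = 0.0242) and followed O9439 across pigs (r = 0.96). GCLC spanned 5.90-fold and 6.58-fold over the 48 pigs on these probes, the widest spans of all member probes. By scan day, the diet difference on O9439 was 0.27 and 0.41 and the line difference -0.12 and -0.46.

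For GCLM, on its 1 member probe O13953, medians were -0.02 in high RFI pigs with HF (-0.69 to 0.40), -0.18 in low RFI pigs with HF (-0.54 to 0.10), -0.25 in high RFI pigs with LF (-0.64 to 0.24) and -0.43 in low RFI pigs with LF (-0.78 to 0.04). The groups overlapped here too. The GCLM diet difference was 0.19 (SE 0.07, P = 0.0126, P-BH = 0.219), and 18 of 24 HF pigs lay above the LF median. The GCLM line difference was -0.17 (SE 0.07, P = 0.0214, P-BH = 0.218), and 18 of 24 low RFI pigs lay below the high RFI median.

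GSR, glutathione reductase, returns oxidized glutathione to its reduced form. On A_72_P443294, GSR levels ran from -0.20 to 1.52 (median 0.53) in the low RFI line and from -0.49 to 1.27 (median 0.59) in the high RFI line, and the lines overlapped. Its line difference was -0.14 (P = 0.23), and that of O12078 was -0.15 (P = 0.0879). The scan days did not give the same answer. On scan day 1 the GSR line differences were -0.42 (P = 0.00198) and -0.30 (P = 0.00154), both past the cut-offs, and on scan day 2 they were 0.14 (P = 0.432) and 0.01 (P = 0.968). The GSR diet difference was 0.01 and -0.03 (P = 0.916 and 0.747).

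TXN, thioredoxin, is the small protein that reduces disulfides in other proteins. On A_72_P677901 all 24 low RFI pigs lay below the high RFI median, with levels from 4.42 to 4.79 (median 4.64) against 4.24 to 5.24 (median 4.81). The highest low RFI pig, at 4.79, was close to that median of 4.81. The lines still overlapped, since the lowest pig was in the high RFI line. The other TXN probes separated the lines less. On the brightest, A_72_P177678, 20 of 24 low RFI pigs lay below the high RFI median, and 19 to 21 did on the rest. The TXN line difference was -0.11 on A_72_P177678 (limma P = 0.0616). On A_72_P677901 it was -0.14 (SE 0.06, P = 0.0178, P-BH = 0.197), an FC of 0.908 that was not called. Over the 5 TXN probes it lay between -0.14 and -0.11, and the highest P was 0.0775. A_72_P121041 and A_72_P546866 have the same 60 bases and share 39 of them with A_72_P677901, so these 3 TXN probes count as 1 reading. The TXN diet difference was 0.12 on A_72_P177678 (P = 0.0403), the brightest, and 0.02 to 0.12 over all 5. O7867, the probe for the opposite strand printed above, gave -0.12 for line (P = 0.0775) and 0.02 for diet (P = 0.778). Across pigs it followed the other TXN probes with r = 0.56 to 0.68, while those followed each other with r = 0.91 to 0.96.

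TXNRD1, thioredoxin reductase, recharges thioredoxin with electrons from NADPH. On A_72_P009866, its brightest probe, levels ran from 4.40 to 4.97 in the low RFI line and from 4.28 to 5.13 in the high RFI line, with medians of 4.72 and 4.79. The TXNRD1 line difference there was -0.05 (95% confidence interval -0.17 to 0.06, P = 0.339). Over all 6 tested probes it lay between -0.14 and -0.01 (P = 0.0852 to 0.882), and the diet difference between -0.02 and 0.06. The TXNRD1 probes fell into separate sets across pigs. A_72_P163096, A_72_P499028 and A_72_P517550 varied together (r = 0.87 to 0.94), and so did A_72_P455657 and O14115 (r = 0.91), but between these sets r was -0.01 to 0.16. A_72_P009866 followed both, with r = 0.58 to 0.71. Of these probes A_72_P163096 and A_72_P499028 share 57 bases. Which transcripts each set reads was not tested.

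**Figure D3:**
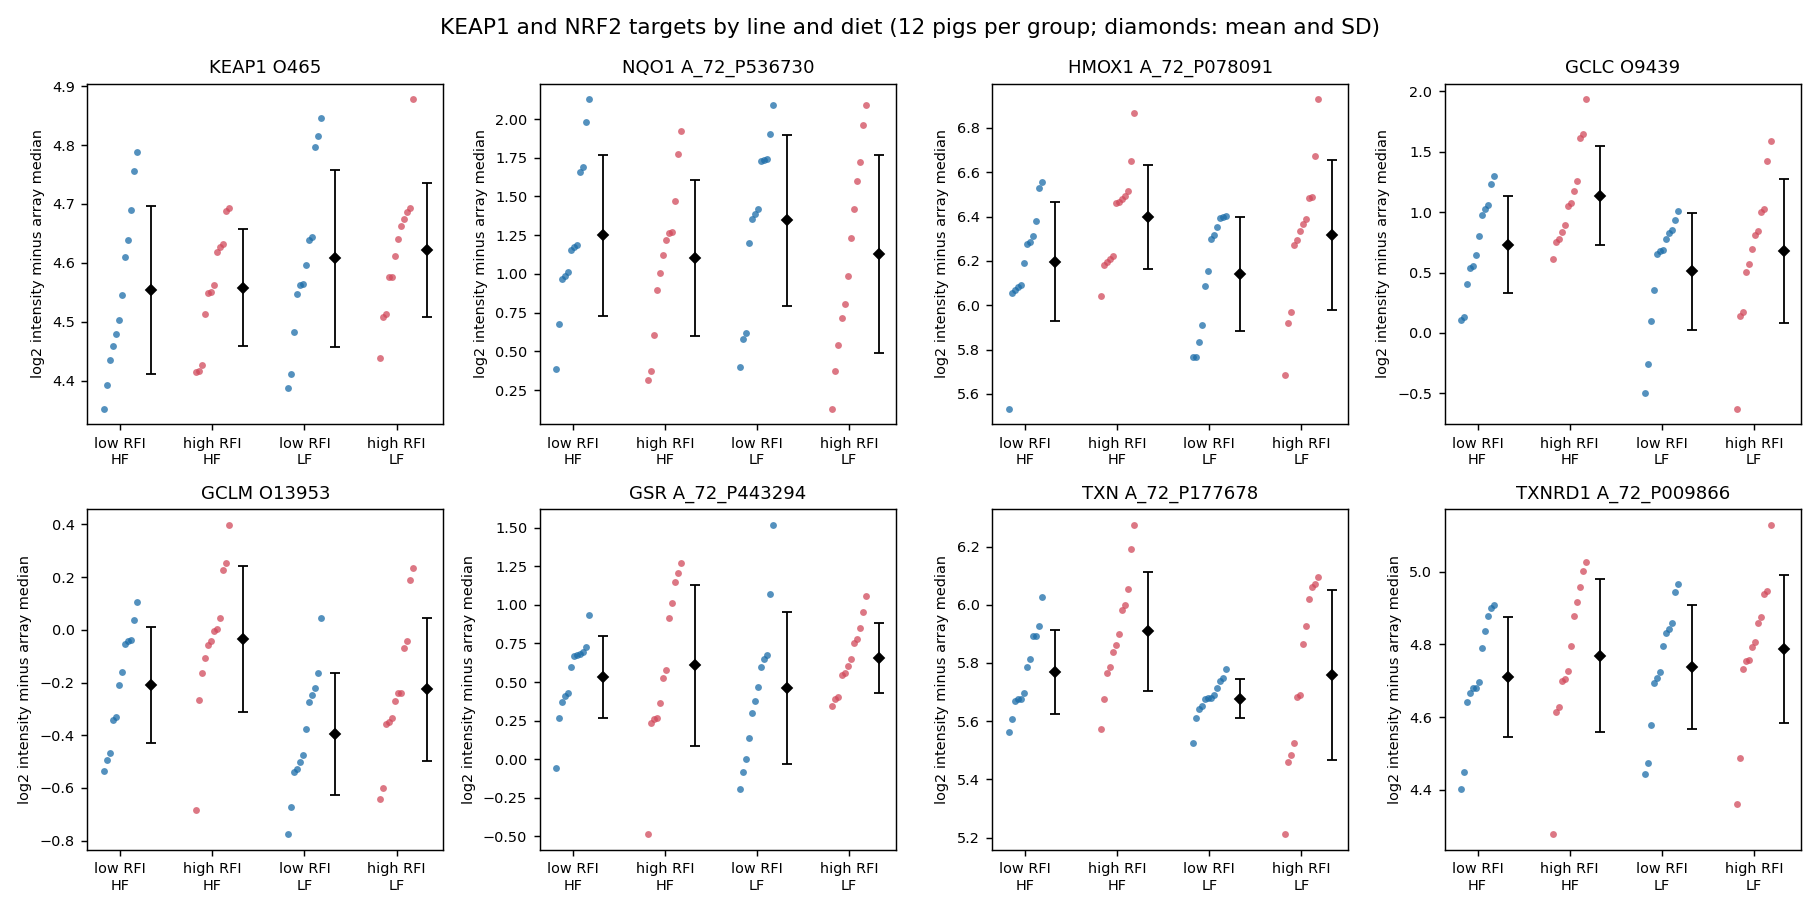
Levels of KEAP1 and the 7 target genes on 1 probe each, the brightest, as log2 intensity minus the array median (y axis), in the 4 line and diet groups (x axis); points are pigs, 12 per group, and diamonds with bars are mean and SD. All groups overlap in every panel, and the y axes differ because levels cannot be compared between probes.

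Markers of other cell types were set beside these line differences. Of the lists examined, 1 of 8 hepatocyte markers was called higher in the low RFI line (APOA1, by 0.15) and 1 of 9 T and NK cell markers was called lower (CD247, by -0.28). For stellate cells and fibroblasts, 1 of 8 was called higher (RGS5, by 0.87), and for bile duct cells, 1 of 6 was called lower (KRT7, by -0.35). On at least 1 probe, 2 of 8 and 2 of 6 were called in these directions. Of all named genes, 6.77% were called for line. The macrophage and Kupffer cell list had 0 of 10 called on its brightest probes, with a median difference of -0.18, and 9 of the 10 differences were below 0. On at least 1 of their probes, 3 of these 10 genes (AIF1, VSIG4 and C1QA) were called lower in the low RFI line. On their brightest probes, 0 of 3 B cell, 0 of 4 neutrophil, 0 of 5 red blood cell and 0 of 8 endothelial cell markers were called for line or diet. The median difference of the red blood cell list was 0.38 for line and -0.34 for diet, and its mean level ran from 0.13 to 2.46 with HF and from 0.49 to 2.44 with LF. Of 5 immediate early and stress genes, 1 was called lower (ATF3, by -0.76), and the group medians of their mean level were 1.95 in low RFI pigs with HF, 2.64 in high RFI pigs with HF, 2.20 in low RFI pigs with LF and 2.29 in high RFI pigs with LF. The part of these markers in the line and diet differences of the members was not tested.

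Whether the 9 genes varied together between pigs of the same group was examined on 1 probe per gene, the brightest, after removal of the 4 group means. Of the 36 pairs, 25 had a positive correlation, the median was 0.12, and 4 passed a P-BH of 5% in permutation tests with 100000 resamples. NQO1, GCLM and TXNRD1, which serve quinone reduction, glutathione synthesis and thioredoxin recycling, formed 3 of these 4 pairs. For NQO1 and TXNRD1, r was 0.43 (rho 0.37, permutation P = 0.0021, P-BH = 0.033), for NQO1 and GCLM 0.42 (rho 0.40, P = 0.0028, P-BH = 0.033) and for GCLM and TXNRD1 0.41 (rho 0.38, P = 0.0036, P-BH = 0.033). Without the 2 pigs farthest from the median on the first gene, these values were 0.35, 0.34 and 0.28. Within scan days they were 0.59 and 0.27, 0.33 and 0.57, and 0.41 and 0.40. By rank, the 3 pairs had a P-BH of 0.092 and did not pass. The pairs with TXNRD1 also depended on the values read. When all probes of a gene were averaged, NQO1 and TXNRD1 had r = 0.30 (permutation P-BH = 0.11) and did not pass, while KEAP1 and GCLC did (r = -0.41, P-BH = 0.036). With slide means removed, GCLM and TXNRD1 did not pass (permutation P-BH = 0.062), while KEAP1 and GCLC did (r = -0.41, P-BH = 0.034). With the deposited values, neither NQO1 and TXNRD1 (r = 0.37, permutation P-BH = 0.091) nor KEAP1 and GCLC (r = -0.34, P-BH = 0.13) passed.

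The closest pair was KEAP1 and GSR, with r = 0.52 (rho 0.48, permutation P = 0.00017, P-BH = 0.0061, by rank 0.028). It was 0.55 without the 2 farthest pigs and 0.35 and 0.60 within the scan days. NFE2L2 had r between -0.25 and 0.28 with the other 8 members, and none of its pairs passed. On these probes no relation between the mRNA of NRF2 and that of its targets passed with 48 pigs. With slide means removed, NFE2L2 and GCLC had r = 0.36 (permutation P-BH = 0.066). When all probes of a gene were averaged, NFE2L2 had r = 0.33 with GCLC, -0.32 with HMOX1 and -0.33 with GSR (permutation P-BH = 0.091 each).

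The members were also set against mean levels of 5 marker lists, in 45 pairs, and 2 passed a P-BH of 5%. NQO1 was lower in pigs with more immediate early and stress gene mRNA (r = -0.46, rho -0.44, permutation P = 0.00087, P-BH = 0.033). Without the 2 farthest pigs r was -0.50, and it was -0.32 and -0.60 within the scan days. GSR was lower in pigs with more hepatocyte marker mRNA (r = -0.45, rho -0.42, permutation P = 0.0014, P-BH = 0.033), with -0.39 without the 2 farthest pigs and -0.39 and -0.52 within the scan days. By rank 4 pairs passed, each with a permutation P-BH of 0.043, these 2 and also KEAP1 with the hepatocyte list (rho -0.43) and GCLM with the immediate early and stress genes (rho -0.41). The list of hepatocyte markers varied by less than 1 log2 unit over all pigs.

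**Figure D4:**
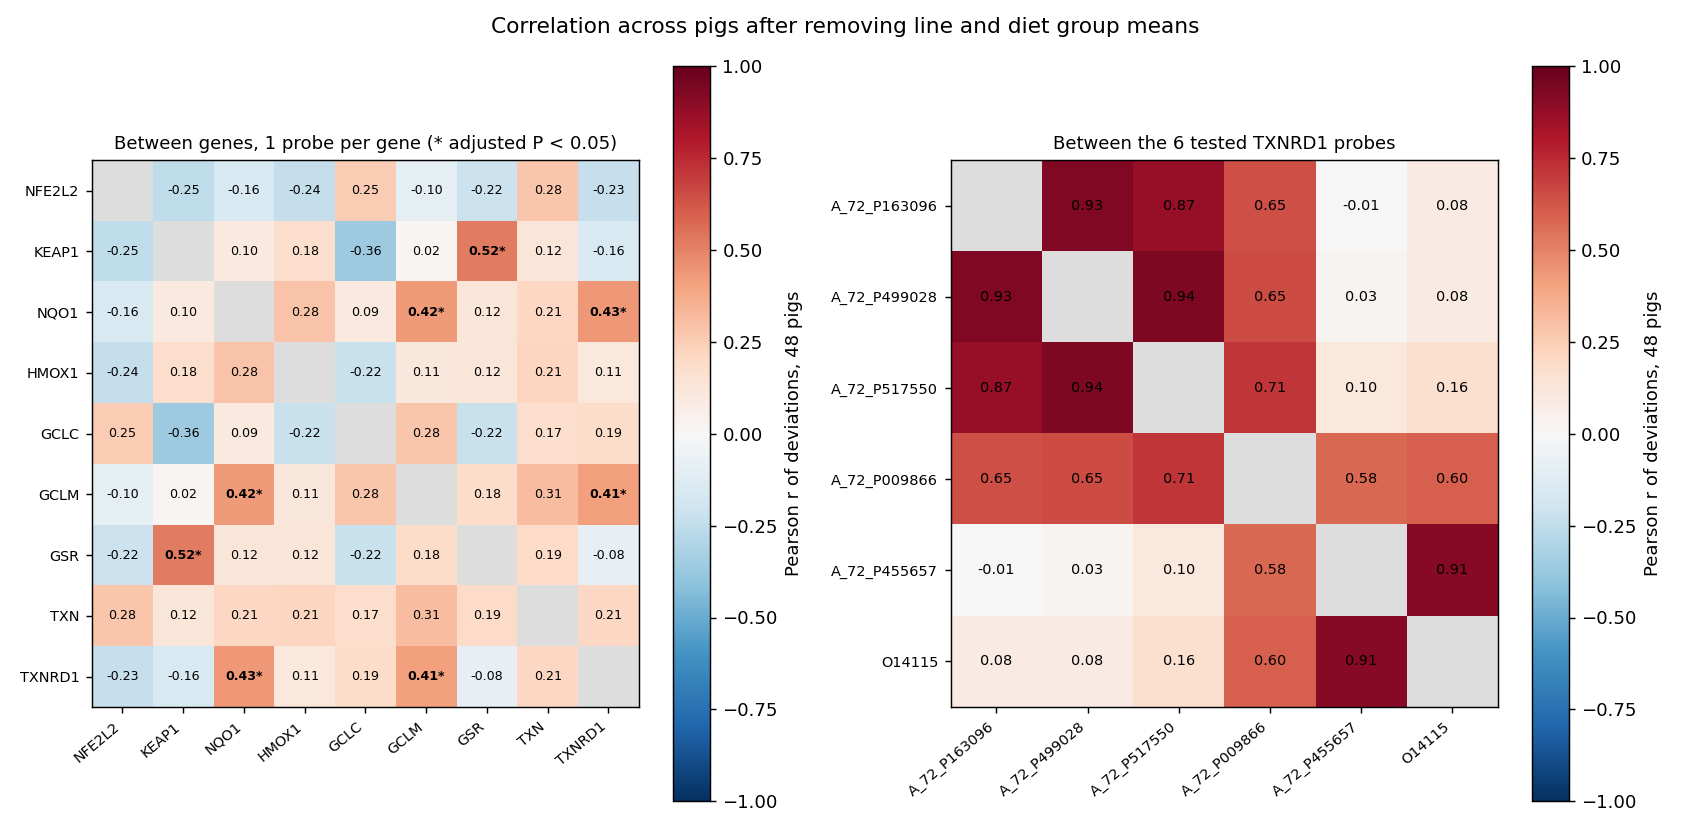
Pearson r across the 48 pigs after removal of group means, between the 9 genes on 1 probe each (left, asterisks at a P-BH under 5%) and between the 6 tested TXNRD1 probes (right); rows and columns are genes or probes, and colour runs from -1 (blue) to 1 (red). The highest value between genes is 0.52 for KEAP1 and GSR, and the TXNRD1 probes form separate blocks of 0.87 to 0.94 and 0.91.

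Other genes of the pathway were read from 6 lists with 66 genes, of which 57 had a tested probe. On the brightest probe of each gene, 5 of 57 (8.77%) were called for line, 1 higher and 4 lower in the low RFI line, beside 6.77% of all named genes. For diet, 2 of 57 (3.51%) were called, 1 higher and 1 lower with the HF diet, beside 4.19% of all named genes, and for the interaction 0 of 57 were.

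Of the 57 genes, GPX3, MGST2 and PRDX1 had the largest line differences. PRDX1, a peroxiredoxin that is recharged by thioredoxin, ran from 4.72 to 6.04 (median 5.30) in the low RFI line and from 5.18 to 6.49 (median 5.87) in the high RFI line. It was under-expressed in the low RFI line by a difference of -0.54 (SE 0.09, P = 2.84e-07, P-BH = 0.000104), and both its probes were called. GPX3, the glutathione peroxidase secreted into plasma, ran from 4.84 to 6.86 (median 6.16) in the low RFI line and from 5.85 to 8.11 (median 6.75) in the high RFI line. Its difference was -0.71 (SE 0.14, P = 7.99e-06, P-BH = 0.00103), and all 5 GPX3 probes were called, at -0.79 to -0.37. MGST2, a glutathione transferase of membranes, had medians of 5.54 and 6.17 and a difference of -0.59 (SE 0.12, P = 1.02e-05, P-BH = 0.00122). On scan day 1 alone the MGST2 difference was -0.40 (P = 0.0191) and was not called. For all 3 genes the ranges of the lines overlapped. Other glutathione peroxidases were not called, with -0.03 for GPX1, -0.10 for GPX2 and -0.08 for GPX4.

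These counts stood in the lists as follows. In glutathione synthesis, transport and use, 2 of 20 genes (GPX3 and MGST2) were called lower in the low RFI line and the median line difference was -0.05. In the thioredoxin system, 1 of 9 (PRDX1) was called lower in the low RFI line, with a median of -0.10, and 1 of 9 was called lower with HF. The latter was TXNRD2, the mitochondrial thioredoxin reductase, which ran from 2.07 to 2.83 (median 2.52) with HF and from 2.33 to 2.88 (median 2.68) with LF, a difference of -0.16 (SE 0.05, P = 0.00145, P-BH = 0.102). The TXNRD2 call was lost in either scan day alone (P = 0.031 and 0.0335) and with normexp (P = 0.0123).

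Of 8 regulators and partners of NRF2, SQSTM1 was called for line and BACH1 for diet. SQSTM1, which can sequester KEAP1, had medians of 5.80 in the low RFI line (5.43 to 6.25) and 5.99 in the high RFI line (5.53 to 6.53), a difference of -0.20 (SE 0.06, P = 0.00225, P-BH = 0.055). On scan day 2 alone the SQSTM1 difference was -0.12 (P = 0.181). BACH1, a repressor that competes with NRF2 for its sites in DNA, ran from 1.19 to 2.44 (median 1.76) with HF and from 1.15 to 1.98 (median 1.53) with LF. Its diet difference was 0.27 (SE 0.07, P = 0.000452, P-BH = 0.0635), so that activator and repressor were both over-expressed with the HF diet. On scan day 1 alone the BACH1 difference was 0.20 (P = 0.0985).

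Among 7 genes of quinone, aldehyde and conjugate handling, ABCC2, the pump for conjugates into bile, was called higher in the low RFI line by 0.31 (P = 0.00666, P-BH = 0.11). This rested on 1 of 5 ABCC2 probes, which lay between -0.01 and 0.31, and on the called probe the difference was 0.14 (P = 0.171) and 0.48 (P = 0.0135) within the scan days. In haem and iron handling 0 of 7 genes, and in NADPH supply 0 of 6, were called for line or diet.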

How the data were processed

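Liver RNA of 48 pigs fed their diets from 74 days of age and sampled at 132 days was labelled with Cy3 and hybridized to 1 array each. The authors deposited the intensity of every spot from Feature Extraction 10.7.3.1, background-subtracted and not normalized between arrays. They also deposited log2 values made in R 2.10.0, which equal the log2 median intensity minus the array median on 37379 probes and were used as an alternative. No other value columns were used.

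Here, 483 outlier spots were set missing, log2 background-subtracted intensities were centred on the array median over tested probes, and limma 3.58.1 (R 4.3.3) fitted line, diet and their interaction on all 48 arrays, with moderated variances. Steps were tested on simulated data. A gene stands by its brightest probe. Correlations used 2-sided permutation tests. No array held saturated spots, and the number of arrays limits the precision. Gene names came from the scanner files or, by accession, from the Sscrofa11.1 gene table. The orientation of NFE2L2 O8761 was read from the primer sequences in the study's supplement. Genome positions are not given here. All members were named, pathway genes where their brightest probe was called, and for likeness the 3 genes of highest r with a member at P under 0.01. The members and lists were chosen with earlier results of these data known. The study kept the pigs in isolated pens, and the labels do not say whether pigs shared litters. The alternatives are given in the closing section.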

Additional observations from a re-analysis of the deposited data

How the results depend on the processing

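The calls of the members rested on few probes. For line, where 0 of 28 probes were called, 1 was called with the median intensity without background subtraction (HMOX1 A_72_P622079), 1 with the deposited log2 values (the same probe), 1 with slide as a block (TXN A_72_P677901) and 2 in scan day 1 alone (both of GSR). The median line difference stayed between -0.11 and -0.07. For diet, where 2 probes were called, 3 were with slide as a block (GCLM added), 3 with normexp (GCLC O9439 added) and 0 in scan day 1 alone. When the probes of each gene were averaged, the NFE2L2 probe of opposite orientation included, 1 of 9 genes (NFE2L2) was called. Of the 4 comparisons within a line or diet, with 2 calls in all, 1 call was made in scan day 2 alone and 1 with gene means. Correlations with marker lists, of which 2 passed, numbered 0 with the deposited values, 0 with gene means and 1 with slide means removed. Adding the 3 overlapping probes without a member name, an alternative chosen after seeing the data, gave 2 of 31 called for line. In that same main fit, 6.91% of all tested probes were called for line and 4.61% for diet. The shares of all features called in the other alternatives are not given here. Those counts therefore show only which member calls changed. Of 293 values of the 21 single results with a P under 0.05 or a pathway call, 278 kept direction and call, 10 lost the call (9 in 1 scan day alone), 5 gained it and 0 changed direction. Over all member probes, 25 of 782 line and diet differences turned, 17 of them in 1 scan day alone, GSR for line on scan day 2 among them. No paired analysis was possible because the replicate numbers only follow the order of the samples. The deposited table held 27 of the 28 probes. Probes near background limit what a difference can show.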

Other observations

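Some probes that carry no member name overlap member probes on the same strand, and they were read after the data were seen. For GCLM, A_72_P594119 shares 35 bases with O13953 and followed it across the 48 pigs (r = 0.94). This GCLM probe was lower in pigs of the low RFI line by -0.20 (SE 0.07, limma P = 0.00455, P-BH = 0.0865), past the cut-offs that O13953 missed, and differed by 0.16 between diets (P = 0.0207). For TXN, a probe that shares 57 bases with A_72_P121041 gave -0.15 for line (SE 0.06, P = 0.0089, P-BH = 0.131), also past the cut-offs, and 0.13 for diet (P = 0.0255). For HMOX1, a probe with the same 60 bases as A_72_P078091 gave -0.17 for line (P = 0.0506) and 0.06 for diet.

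Opposite-strand pairs such as those of TXN and NQO1 were uncommon on the array. Of 9454 named probes of the O series, 919 shared at least 30 bases with an A_72 probe of the same gene on the same strand, 44 on the opposite strand and 1 on both.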
